A study of Mus musculus with 6 samples.

Results

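The 9 genes described here encode mitophagy receptors, the kinase PINK1 and proteins of mitochondrial fusion in B16F10 cells, an established line of mouse melanoma cells. They are Bnip3, Bnip3l, Fundc1, Bcl2l13, Fkbp8, Phb2, Pink1, Mfn2 and Opa1, and each was found once by its gene symbol among the 27179 genes of the deposited table. The group was chosen by a strong rise of Bnip3 in the authors' own comparison of the treatments, whose values are not used here. The libraries came from wild-type B16F10 cells labelled as skin melanoma. Of the 6 libraries, 3 were from cells given 0.01% ozonated olive oil (OZO) for 6 h and 3 were from cells given 0.01% olive oil (OLO), its precursor, for the same time. Both groups received an oil, and cells without oil were not analysed here. The study describes the expression data of these cells as coming from independent experiments, which the labels do not state. The value analysed for each gene is the authors' mean of its log2 CPM, the read count scaled to the size of the library, over all 6 libraries. It has no standard deviation, and it is not split by treatment. For a gene that differed between OZO and OLO, this mean lies between the levels of the treatments and gives neither of them, and by the way the group was chosen Bnip3 is such a gene. The text below therefore describes which mitophagy genes B16F10 cells transcribed and at what levels, and it makes no comparison of OZO with OLO.

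Mitophagy is the removal of damaged or surplus mitochondria by autophagy, in which a membrane closes around the organelle and carries it to the lysosome. Receptor proteins in the mitochondrial membrane can bind LC3 and GABARAP proteins on the growing autophagic membrane directly. In the other main route PINK1, a kinase that builds up on damaged mitochondria, phosphorylates ubiquitin, and adaptor proteins such as optineurin then join the ubiquitin-coated organelle to LC3. BNIP3 and BNIP3L (also known as NIX) are related receptors of the outer membrane, and Bnip3 is known as a target of the hypoxia-inducible factor HIF.

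Genes without any read shared the lowest mean of the table, -5.30 on the log2 CPM scale, and 6025 genes had this value. Because voom adds 0.5 reads to each count, this value gives a geometric mean of the scaled library sizes of 19641945 reads, so that 1 CPM stood for 19.6 reads. The depth of each library is unknown. At least 1 read was found for 21154 genes. All 7 melanocyte markers were above 1 CPM, with Dct, an enzyme of melanin synthesis, at 7052 CPM and Sox10, the lowest, at 109 CPM, and their summed level was 17193 CPM. The 10 markers of keratinocytes, fibroblasts, leukocytes and endothelium summed to 8.55 CPM, and 4 of them were at 1 CPM or more. The highest of them was Pdgfra at 3.28 CPM, and the keratinocyte marker Krt5 had no reads.

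All 9 genes lay above the median of the genes with reads, although Pink1 lay below the middle, at the 44.4th percentile, when the set was limited to genes at 1 CPM or more. To compare genes, each mean was divided by the gene's length, taken as its merged exons in kb, and the result is a level in log2 CPM per kb. The levels ran from 6.06 for Bnip3 to 2.56 for Pink1, a range of 11.3-fold (31.5-fold with the coding length), whereas the median over the 19227 genes with reads and a known length was 0.55. Bnip3 exceeded 97.2% of those genes, and Pink1 exceeded 66.7%. The median of the 9 genes lay at the 89.4th percentile, 8 of the 9 were above the 75th percentile and 4 were above the 90th. No error attaches to these values, so neighbours in the order cannot be told apart by the spread between libraries. Neighbours differed by 0.14 to 1.19 on the log2 scale, with the widest step between Mfn2 and Pink1 and the narrowest between Opa1 and Fkbp8.

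**Figure D1:**
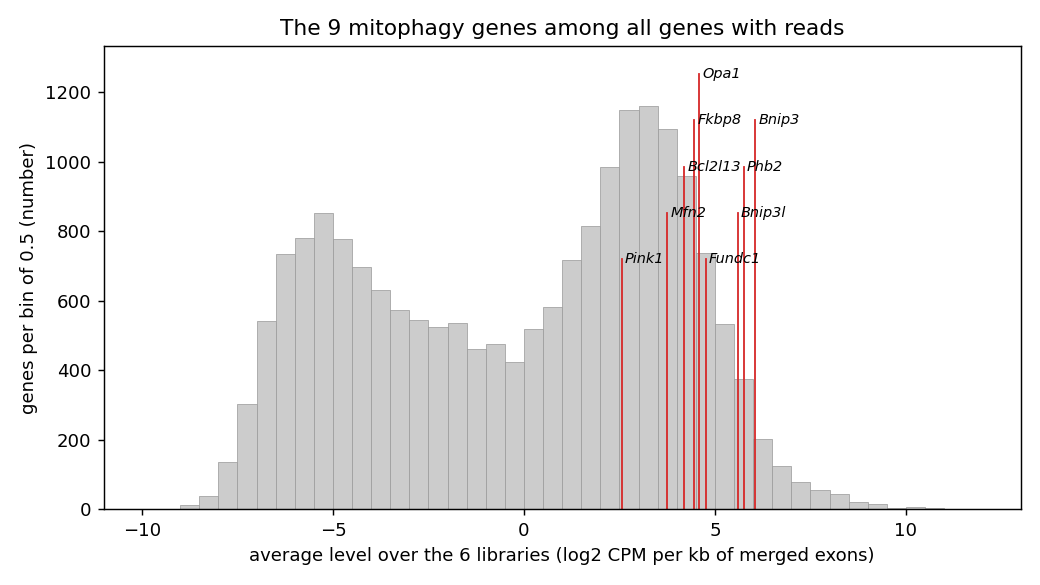
Mean level over the 6 libraries in log2 CPM per kb of merged exons (x axis) for the 19227 genes with reads and a known length, as the number of genes per bin of 0.5 (y axis). Red lines mark the 9 genes, and their heights only keep the names apart. All 9 lines lie to the right of the median of 0.55, with Pink1 at 2.56 and Bnip3 at 6.06.

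The promoter windows of the highest, the second highest and the lowest of these genes are shown first, since they differ in the short motifs they hold. Each is the 250 bases before the RefSeq start site on GRCm38.p6, the mm10 build, written 5′ to 3′ on the strand of the gene. Capitals mark ACGTG or GCGTG, the core of sites that HIF binds, or their complements CACGT and CACGC.
Bnip3, chr7:138909507-138909756, minus strand: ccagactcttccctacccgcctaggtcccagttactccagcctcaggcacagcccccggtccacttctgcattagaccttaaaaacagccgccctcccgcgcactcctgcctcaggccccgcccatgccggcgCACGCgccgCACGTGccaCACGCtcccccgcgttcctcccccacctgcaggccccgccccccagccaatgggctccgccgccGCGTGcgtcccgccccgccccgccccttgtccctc
Phb2, chr6:124712039-124712288, plus strand: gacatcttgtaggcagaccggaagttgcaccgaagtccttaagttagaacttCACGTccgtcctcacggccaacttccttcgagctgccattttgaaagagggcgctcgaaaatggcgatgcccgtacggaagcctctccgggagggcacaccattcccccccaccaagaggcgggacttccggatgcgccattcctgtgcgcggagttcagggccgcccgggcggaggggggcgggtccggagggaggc
Pink1, chr4:138326297-138326546, minus strand: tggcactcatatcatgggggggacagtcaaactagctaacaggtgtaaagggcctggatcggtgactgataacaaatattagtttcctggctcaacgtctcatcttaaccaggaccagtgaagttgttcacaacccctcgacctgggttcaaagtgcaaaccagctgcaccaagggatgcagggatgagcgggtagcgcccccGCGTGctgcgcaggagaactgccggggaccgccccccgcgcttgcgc

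The Bnip3 window held 5 matches to ACGTG or GCGTG on both strands together, of which 2 were the opposite strands of a single CACGTG. Of the 32851 windows in the RefSeq set, 38.6% held at least 1 match and 1.01% held 5 or more. In Bnip3 the CACGTG lay 108 to 103 bases before the start, with GCGTG matches at 117 to 113 and 99 to 95 bases on the opposite strand. A further GCGTG lay at 35 to 31 bases on the strand of the gene. Phb2 had 1 ACGTG on the opposite strand, 198 to 194 bases before the start. Pink1 had 1 GCGTG, at 47 to 43 bases. Fkbp8 had 2 matches, and Bcl2l13 had 1. The 3 windows of Mfn2, which has several start sites in RefSeq and whose windows overlap, held 1, 1 and 2 matches. No match was present in the window of Opa1. The window of Fundc1 had none either, but it lies inside the gene as GENCODE places it, downstream of the GENCODE start, and so does not cover the sequence before that start. A window was matched for 8 of the 9 genes, Bnip3l being the other. The share of G and C ran from 52.0% in Opa1 to 72.4% in Bnip3, against a median of 52.4% over all windows, and both motifs contain CG pairs. Bnip3 had 24 CG pairs, against a median of 6, but the count was 22 in Phb2 and 25 in the Mfn2 window with 2 matches. The motif TGACNNNGC, the core of the element bound by NRF2, was found only in Bcl2l13 among these windows, at 2 positions, and 10.2% of all windows held it. These matches describe letters in the windows and do not show that a factor was bound.

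**Figure D2:**
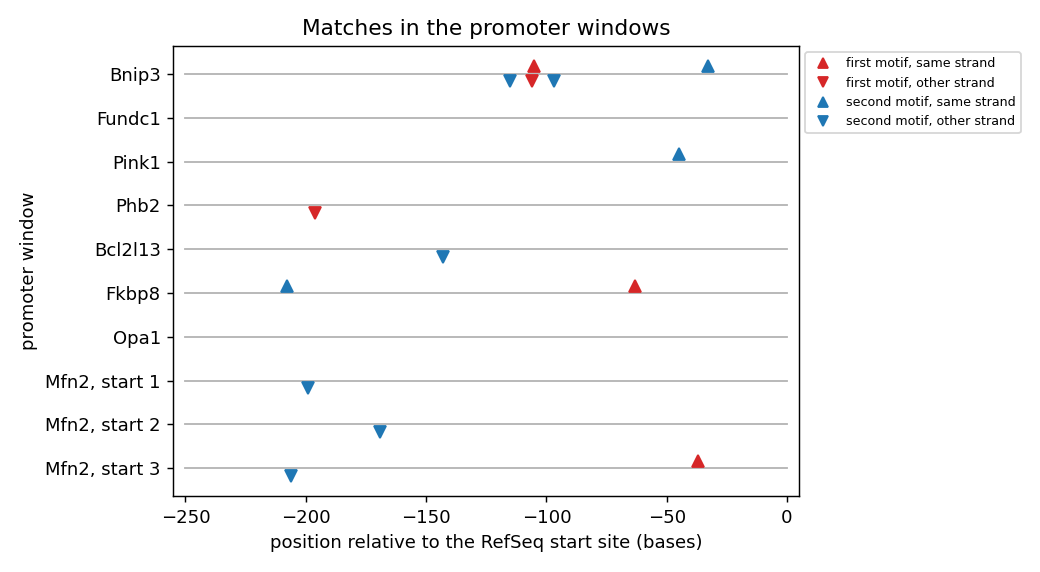
Matches to ACGTG (first motif, red) and GCGTG (second motif, blue) in the 10 promoter windows of 8 genes, by position in bases relative to the RefSeq start site (x axis). Each grey line is 1 window (y axis), with triangles above it for the strand of the gene and below it for the opposite strand. Bnip3 has 5 triangles and no other window has more than 2.

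Of the receptors, Bnip3 had the highest mean level per kb of merged exons. This rank rests on a mean over both treatments and may hold in neither of them, and without scaling by length Bnip3 was the fifth of the 9 genes. Bnip3 (ENSMUSG00000078566) lies on chromosome 7 of GRCm38 from 138890836 to 138909519 on the minus strand. Its mean was 7.24 log2 CPM, or 151 CPM, which corresponds to 2971 reads in a library of average size. Its longest complete coding transcript has 6 exons and encodes 187 residues, with a 3′ UTR of 1079 bases. Annotated transcripts of 6 other genes matched the Bnip3 transcript over at least 150 bases with at least 90% identity. The longest match was 1654 bases at 96.6% in the noncoding RNA gene AC160336.1, and the processed pseudogene Gm16439 matched over 564 bases at 98.9%. None of these 6 genes was found by its Ensembl identifier among the genes with a value, and their part in the value of Bnip3 was not tested. The sources used here do not state how reads with several alignments were counted. Another of the 6, the antisense gene Gm45507, overlaps exons of Bnip3. The library kit keeps the strand, but the strand setting of the counting is not given in the sources used here.

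Bnip3l (ENSMUSG00000022051) lies on chromosome 14 from 66985239 to 67008877 on the minus strand and encodes 218 residues. Its mean was 7.55 log2 CPM, or 187 CPM. Per kb its level was 5.60, which exceeded 95.5% of genes. Bnip3 was therefore 1.38-fold higher than Bnip3l per kb of merged exons. This order turned with the length used, since per kb of coding sequence the log2 difference of Bnip3 from Bnip3l was -0.087. The 3′ UTR of Bnip3l has 2488 bases, longer than that of Bnip3. The coding sequences of both genes were 73.5% identical over 548 aligned bases, and the transcript of neither gene matched the other at 90% identity. A processed pseudogene, Bnip3l-ps, matched Bnip3l over 1131 bases at 99.4%, and its own mean in the table was 7.11 CPM.

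Per kb, the other outer membrane receptors lay below Bnip3 and Bnip3l, whereas without scaling by length Bcl2l13 lay above Bnip3. Fundc1 (ENSMUSG00000025040) encodes a receptor whose binding to LC3 is set by phosphorylation, and it lies on chromosome X from 17556564 to 17572325 on the minus strand. Its mean was 64.0 CPM and its level 4.76 log2 CPM per kb, above 90.7% of genes. Fkbp8 (ENSMUSG00000019428) encodes a membrane-anchored immunophilin that binds LC3 proteins, and it lies on chromosome 8 from 70527724 to 70535328 on the plus strand. Its mean was 99.7 CPM and its level 4.46 log2 CPM per kb. Per kb of the longest transcript its level was 5.79, the fourth highest of the 9. Bcl2l13 (ENSMUSG00000009112), the mammalian counterpart of the yeast mitophagy receptor Atg32, lies on chromosome 6 from 120836212 to 120892842 on the plus strand. It had 167 CPM and a level of 4.20 log2 CPM per kb. The 3′ UTR of Bcl2l13 makes up 5451 bases of a transcript of 6925, and with all its reads divided by the coding length alone the gene was at 7.0. Coverage of the UTR was not measured here. Fkbp8 shares exon bases with Kxd1 on the opposite strand, which had 24.4 CPM. Bcl2l13 shares exon bases with Bid, also on the opposite strand, which had 26.9 CPM.

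Phb2 (ENSMUSG00000004264) encodes prohibitin 2, an inner membrane protein that binds LC3 once the outer membrane has ruptured. It lies on chromosome 6 from 124712336 to 124716950 on the plus strand. Phb2 had 202 CPM and, at 5.76 log2 CPM per kb, the second highest level, above 96.3% of genes. Phb, its partner in the ring-shaped prohibitin complex, named Phb1 in the table, was at 5.85. The partners differed by 0.091 on the log2 scale per kb of merged exons and by -0.18 per kb of coding sequence, so the direction depended on the length. An antisense gene, Gm15884, and a small nucleolar RNA gene, Gm23547, overlap exons of Phb2.

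**Figure D3:**
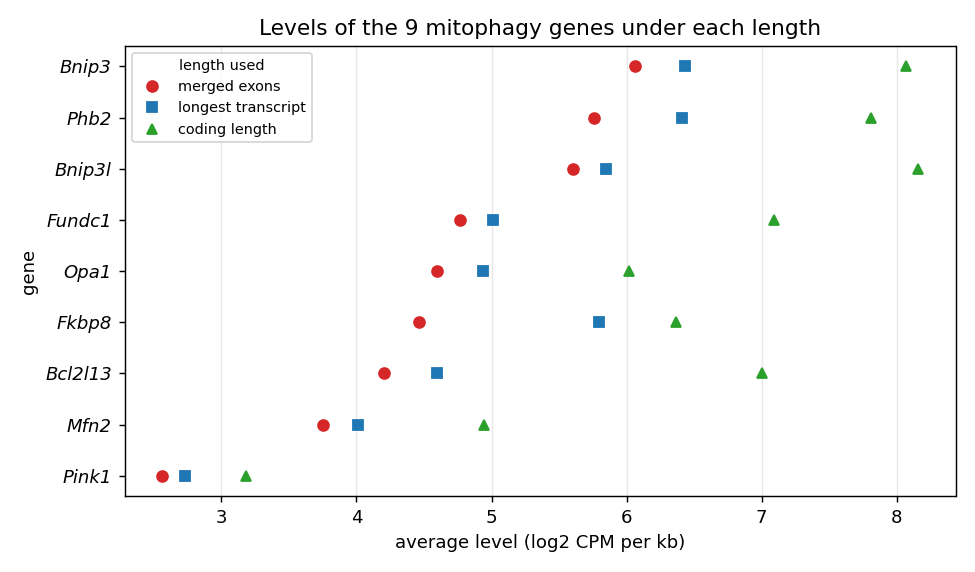
Mean level in log2 CPM per kb (x axis) of each of the 9 genes (y axis), with length taken as merged exons (circles), the longest transcript (squares) or the coding sequence (triangles). Bnip3, Phb2 and Bnip3l are the highest 3 and Pink1 is the lowest under every length, whereas Fkbp8, Bcl2l13, Fundc1 and Opa1 change places.

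Pink1 had the lowest level of the 9 genes under each length. Pink1 (ENSMUSG00000028756) lies on chromosome 4 from 138313409 to 138326307 on the minus strand, and its mean was 15.8 CPM, or 310 reads in a library of average size. The difference from Mfn2, the next gene in the order, was 1.19 on the log2 scale per kb. Parl, the inner membrane protease that cleaves PINK1 in healthy mitochondria, was at 4.15 log2 CPM per kb. It lay above Pink1 by 1.58 on the log2 scale with merged exons, 2.34 with the longest transcript and 2.75 with the coding length. Usp30, a deubiquitinase of the outer membrane that removes ubiquitin from mitochondria, was at 1.77. The log2 difference of Usp30 from Pink1 was -0.80 per kb of merged exons but 0.55 per kb of coding sequence, so the direction depended on the length. The microRNA genes Mir7019 and Gm27646 overlap exons of Pink1 on its own strand.

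Mfn2 and Opa1 encode dynamin-related GTPases that fuse the outer and the inner membrane, and mitofusin 2 is also a substrate of PINK1. Mfn2 (ENSMUSG00000029020) lies on chromosome 4 from 147873599 to 147904704 on the minus strand, with 70.0 CPM and 3.75 log2 CPM per kb. Mfn1, its relative with 67.9% identity over 2195 aligned coding bases, was 1.45-fold higher per kb, at 4.28, and it was higher under each length. Opa1 (ENSMUSG00000038084) lies on chromosome 16 from 29579334 to 29654884 on the plus strand. Opa1 had 190 CPM, spread over 7.88 kb of merged exons, and so a level of 4.60 log2 CPM per kb. Of the proteases that cleave OPA1, Yme1l1 was 1.41-fold above Opa1 at 5.09 log2 CPM per kb. Oma1, the protease that acts under stress, was at 2.47, with a log2 difference from Opa1 of -2.13 per kb of merged exons and -3.10 per kb of coding sequence. Both directions were the same under each length.

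Most other genes of the pathway were transcribed as well. Of the 46 genes reported from 4 lists, 45 had reads and were at 1 CPM or more, against 43.7% of all 27179 genes. The other was Calcoco2, a ubiquitin adaptor listed with no reads. A count of 0 in all 6 libraries allows a level of up to 0.0255 CPM, a limit that covers counting error only. In the PINK1 and ubiquitin list, 18 of 19 genes were at 1 CPM or more, with a median of 4.86 log2 CPM per kb. The adaptor Sqstm1 was highest, with 1422 CPM and 8.73 log2 CPM per kb. The study reports that OZO raised Sqstm1 in B16F10 cells, so this mean gives the level of neither treatment. The adaptor Optn was at 4.55, and the kinase Tbk1, which phosphorylates optineurin, was at 4.13. In the LC3 list all 5 genes were above 1 CPM, from 3.10 for Map1lc3a to 5.86 for Gabarapl1 on the log2 CPM per kb scale. Only 3 of the 46 genes had a level per kb above that of Bnip3, and 38 were above Pink1.

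All 12 genes of the receptor control list were above 1 CPM, with a median of 3.11 log2 CPM per kb. FUNDC1 is phosphorylated by SRC, casein kinase 2 and ULK1 and dephosphorylated by PGAM5. Csnk2a1, a catalytic subunit of casein kinase 2, was the highest of the list at 5.11 and lay 0.35 above Fundc1. Pgam5 was at 4.24, Src at 3.04 and Ulk1 at 2.63, all below Fundc1 under each length. Fbxl4 and Pptc7 encode proteins that limit the amount of BNIP3 and BNIP3L. Fbxl4 was at 2.24, and its log2 difference from Bnip3 was -3.82 per kb of merged exons and -4.80 per kb of coding sequence. Pptc7 was at 3.64, 5.37-fold below Bnip3. Rheb, a small GTPase that binds BNIP3L, was at 4.23. The log2 difference of Rheb from Bnip3l was -1.37 per kb of merged exons, -0.69 with the longest transcript and -0.13 with the coding length. The lowest of the list was Bcl2 at 1.80. In the list of fusion, fission and proteases all 10 genes were above 1 CPM, with a median of 4.14, from Rhot2 at 2.45 to Phb at 5.85.

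**Figure D4:**
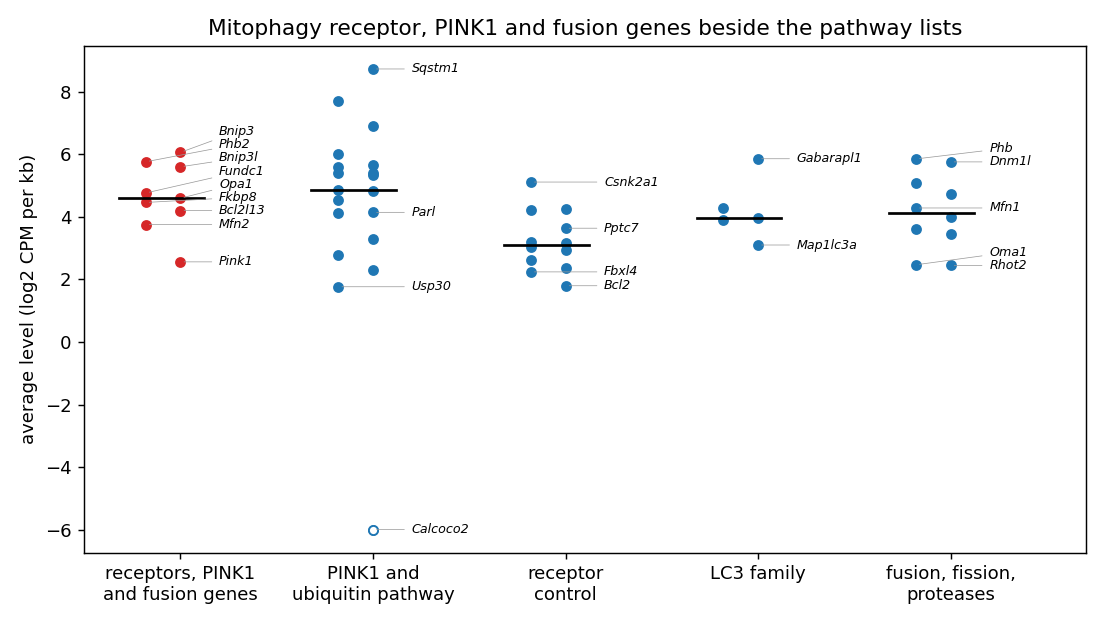
Mean level in log2 CPM per kb of merged exons (y axis) of the 9 genes (red) and of the genes of the 4 pathway lists (blue), each point being 1 gene and each bar the median. The open circle is Calcoco2, which had no reads and is drawn at the value that voom gives to a count of 0. Sqstm1 at 8.73 is the highest, and Bcl2 at 1.80 and Usp30 at 1.77 are the lowest with reads.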

How the data were processed

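Total RNA of B16F10 cells was made into libraries with a directional kit. According to the submitters' processing notes, reads were mapped by the authors with HISAT2 (2.1.0), using the mm10 build, then counted per gene by featureCounts (2.1.1) and passed to limma (3.58.1, voom). The values used here are the deposited averages of log2 CPM over all 6 libraries, 1 value per gene. The table also holds the authors' own comparison of OZO with OLO (log2 fold changes, moderated statistics, p-values and log-odds), and none of those columns was used. The plan for values of single libraries was therefore not followed.

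Members and lists were chosen with earlier results of these data known. All 9 members are named, and of each list the highest, the lowest, genes without reads and genes acting directly on a member. Other genes were named after their values were seen. An item of the planned lists is not reported here, and list counts leave it out. Lengths and positions came from GENCODE M21 on GRCm38, where 23906 of 24126 Ensembl identifiers were found. Coding sequences were aligned with Biopython (1.88) and copies were sought among GENCODE transcripts with BLAST (2.17.0). Promoter windows were those of RefSeq. Python 3.11.15, numpy 2.4.6 and pandas 2.3.3 were used. The limit for a count of 0 was 3 reads over all libraries.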

Additional observations from a re-analysis of the deposited data

How the results depend on the processing

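No paired analysis was possible because only averages over all 6 libraries were used. For the same reason another test or normalization of OZO against OLO, a filter on low counts, another pseudocount and leaving out each replicate were not run. Of the 36 pairs of the 9 genes, 34 kept their order with the longest transcript as the length, 31 with the coding length and 26 without scaling. The median percentile of the 9 genes was 91.4 among all genes of the table and 82.2 among genes at 1 CPM or more, in place of 89.4. In the latter set Mfn2 was at 67.9 in place of 80.8 and Pink1 at 44.4 in place of 66.7, because weakly transcribed genes are left out of the set. The number of pathway genes past the limit was 45 at 0.5, 1 and 5 CPM. The lowest of the 9 genes, Pink1, stood for 310 reads per library, and the depth of single libraries is unknown.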
